A study of Homo sapiens with 18 samples.

Results

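RAB7A, PLEKHM1 and the 6 subunits of the HOPS (homotypic fusion and vacuole protein sorting) tethering complex, VPS11, VPS16, VPS18, VPS33A, VPS39 and VPS41, were followed across the libraries of the study. They are 8 of the 20802 genes listed in the counts, and each was found by its gene symbol as a single row. All 8 passed the minimum of 100 reads summed over the libraries and were among the 10212 genes tested.

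RKO, an established human colorectal carcinoma cell line, had been transfected with 30 nM siRNA and harvested 72 h later. The nontargeting siRNAs were siCtrl#1 and siCtrl#2, the on-target ones siTsg101#1, siTsg101#2, siVps28#1 and siVps28#2, and every group held 3 replicates from independent experiments. All cells carried a transfected siRNA, so that siCtrl#1, the reference of the comparisons, was itself a treated group. Tsg101 and Vps28 are core subunits of ESCRT-I (endosomal sorting complex required for transport I), which sorts ubiquitinated membrane cargo into multivesicular endosomes.

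RAB7A is the small GTPase that marks late endosomes and lysosomes and recruits their fusion and transport machinery. PLEKHM1 is an adaptor protein that binds RAB7A and HOPS, and HOPS holds late endosomes or autophagosomes next to lysosomes until SNARE proteins fuse the membranes. VPS39 and VPS41 are the HOPS subunits that sit at its membrane-binding ends, whereas VPS11, VPS16, VPS18 and VPS33A form a core that is also used by CORVET, the tether of early endosomes. The comparisons below ask whether transcripts of this machinery were altered when ESCRT-I was depleted, whether Tsg101 and Vps28 depletion differed, and how far the choice of nontargeting siRNA set the answer.

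The stretches upstream of the RefSeq starts are shown because transcripts of RAB7A, PLEKHM1 and VPS41 were higher together after ESCRT-I depletion, and because VPS11 and VPS16 were the genes with a match to the letters CACGTG. These letters are the core of the E-box recognized by TFEB and TFE3, basic helix-loop-helix factors that drive lysosomal genes and that the study followed. The sequences were taken from RefSeq promoter windows of build GRCh38.p14, which held 6 of the 8 genes (not VPS18 and VPS33A), and were located in GRCh37 by exact match. They are written 5′ to 3′ on the strand of the gene, from 250 bases before the RefSeq start up to the first annotated exon base of the window, with CACGTG in capitals. For RAB7A and VPS41 this start lies inside the gene span given below, because GENCODE also annotates longer transcripts that begin farther upstream, and the sequence before those was not searched. RAB7A lies at chr3:128444776-128444978 on the plus strand, PLEKHM1 at chr17:43568125-43568337 on the minus strand and VPS41 at chr7:38948792-38949041 on the minus strand. VPS11 lies at chr11:118938279-118938528 and VPS16 at chr20:2821141-2821348, both on the plus strand.
RAB7A: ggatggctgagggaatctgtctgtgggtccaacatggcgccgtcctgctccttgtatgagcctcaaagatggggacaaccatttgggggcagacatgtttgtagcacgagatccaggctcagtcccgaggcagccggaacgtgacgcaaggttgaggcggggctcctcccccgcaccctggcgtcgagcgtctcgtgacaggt
PLEKHM1: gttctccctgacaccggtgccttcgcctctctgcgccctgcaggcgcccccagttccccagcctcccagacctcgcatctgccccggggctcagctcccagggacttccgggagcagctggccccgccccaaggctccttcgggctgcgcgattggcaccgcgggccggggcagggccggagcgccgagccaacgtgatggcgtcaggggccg
VPS41: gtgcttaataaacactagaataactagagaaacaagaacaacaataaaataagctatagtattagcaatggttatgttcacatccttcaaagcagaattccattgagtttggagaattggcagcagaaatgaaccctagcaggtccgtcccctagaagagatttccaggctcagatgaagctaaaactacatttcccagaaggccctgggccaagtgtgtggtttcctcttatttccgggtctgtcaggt
VPS11: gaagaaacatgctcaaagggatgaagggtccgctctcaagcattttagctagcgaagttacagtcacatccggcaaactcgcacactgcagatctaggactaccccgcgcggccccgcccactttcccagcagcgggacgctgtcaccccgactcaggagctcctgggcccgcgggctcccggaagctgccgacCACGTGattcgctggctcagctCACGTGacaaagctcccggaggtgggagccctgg
VPS16: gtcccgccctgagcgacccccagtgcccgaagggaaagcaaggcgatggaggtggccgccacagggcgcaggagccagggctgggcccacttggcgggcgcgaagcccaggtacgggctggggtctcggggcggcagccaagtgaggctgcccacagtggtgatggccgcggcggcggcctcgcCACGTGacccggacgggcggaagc

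The 250 bases before the RefSeq start of RAB7A, PLEKHM1, VPS39 and VPS41 held no CACGTG. The VPS11 window shown held 2 copies, whose first bases lay 56 and 34 bases before the start, and the VPS16 window held 1 copy, 66 bases before it. Among all 35116 RefSeq promoter windows of the same length, 6.34% held CACGTG. The longer form TCACGTG, which contains it and was searched on both strands, was found in VPS11 and VPS16 and in 3.31% of all windows. TCATGTG was found in none of the 6 genes and in 2.52% of all windows. Sequence outside these windows was not searched, and binding of TFEB or TFE3 was not tested.

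Between 2561790 and 7466916 reads fell on genes per library. TSG101 was at 2.49 to 4.99 CPM (a read count normalized to the size of its library) in the 6 siTsg101 libraries and at 74.5 to 166.6 CPM in the other libraries, and VPS28 was at 3.48 to 7.78 CPM in the 6 siVps28 libraries and at 65.1 to 111.9 CPM in the others. Of the epithelial and colorectal markers looked up, KRT8, KRT18, EPCAM and CDX2 passed the read minimum, whereas KRT19, CDH1, VIL1 and KRT20 had 0 to 6 reads over all 18 libraries. Markers of other cell types had 0 to 50 reads (PTPRC, COL1A1, COL1A2, PECAM1 and VWF). Averaged over the on-target siRNAs and set against siCtrl#1, KRT8 was lower (log2 fold change -0.69, edgeR adjusted p = 0.0127) and EPCAM higher (0.65, adjusted p = 0.0382), and EPCAM was also higher with siCtrl#2 (1.02, adjusted p = 0.0473). Their part in the results was not tested.

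Set against siCtrl#1, depletion of ESCRT-I raised the transcripts of RAB7A, PLEKHM1 and VPS41, whereas the shared HOPS core did not pass the test. The VPS41 result depended on the reference, since against siCtrl#2 it was 0.50 on the log2 scale, under the 1.5-fold minimum used below. Averaged over the 4 on-target siRNAs, PLEKHM1 was 2.11-fold, RAB7A 1.71-fold and VPS41 1.71-fold higher than with siCtrl#1. A gene was called where it differed at least 1.5-fold with an adjusted p under 0.05 in edgeR's quasi-likelihood test, adjusted by the Benjamini-Hochberg method over all 10212 genes. By this rule 3 of the 8 genes were called higher and 0 lower, beside 8.56% of all tested genes called higher and 6.54% called lower. VPS39 passed the adjusted p but not the fold minimum, so that 4 of the 8 were higher by the adjusted p alone, beside 12.2% of all tested genes. The estimate was above 0 for all 8 genes, with a median log2 fold change of 0.39 beside -0.0035 over all tested genes. In bulk RNA, a change in the share of cells that carry a transcript cannot be told apart from a change in its amount per cell.

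RAB7A (3:128412512-128544785 in GRCh37, plus strand) was higher with every on-target siRNA. Its level was 281, 274 and 279 CPM in the siCtrl#1 libraries and 222, 267 and 283 CPM in the siCtrl#2 libraries. It was 419, 417 and 529 CPM with siTsg101#1 and 480, 578 and 471 CPM with siTsg101#2. With siVps28#1 it was 541, 436 and 570 CPM, and with siVps28#2 393, 461 and 423 CPM. All 12 on-target libraries thus lay above all 6 nontargeting ones, a separation seen in 1.96% of all tested genes. The highest nontargeting level was 283 CPM and the lowest on-target level 393 CPM.

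The RAB7A group means followed the order siVps28#1 (516 ± 70.8 CPM, SD, n = 3), siTsg101#2 (509.6 ± 59.4), siTsg101#1 (455 ± 64.3), siVps28#2 (425 ± 34.0), siCtrl#1 (278 ± 3.76) and siCtrl#2 (257 ± 31.6). Libraries of neighbouring groups overlapped everywhere in this order except between siVps28#2 and siCtrl#1. Averaged over Tsg101 and Vps28 siRNAs, the log2 fold change against siCtrl#1 was 0.77 ± 0.13 (SE; 95% confidence interval 0.51 to 1.04, adjusted p = 1.22e-04). The siTsg101 duplexes gave 0.71 (#1) and 0.87 (#2) and the siVps28 duplexes 0.89 (#1) and 0.61 (#2), each called (adjusted p from 3.07e-04 to 0.00775). The siVps28#2 value lay near the fold minimum, and without siVps28#2 replicate 2 it was 0.56 (adjusted p = 0.0347) and no longer called. Within the 3 batches the on-target mean exceeded siCtrl#1 by 0.69 to 0.83 on the log2 scale.

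PLEKHM1 (17:43513266-43568124 in GRCh37, minus strand) had the largest mean estimate of the 8 genes and was higher with every on-target siRNA. Its level was 60.1, 82.1 and 101.6 CPM in the siCtrl#1 libraries and 74.0, 70.8 and 81.9 CPM in the siCtrl#2 libraries. It was 180.1, 178 and 201.2 CPM with siTsg101#1 and 142, 108 and 156 CPM with siTsg101#2. With siVps28#1 it was 144, 158 and 194 CPM, and with siVps28#2 177, 224 and 225 CPM. Again no on-target library fell to the nontargeting range, but the gap was narrow, from 101.6 CPM in siCtrl#1 replicate 3 to 108 CPM in siTsg101#2 replicate 2. Reads over 54.9% of the longest PLEKHM1 transcript could come from near-identical copies, among them the pseudogene PLEKHM1P1, since stretches of 50 bases are shared. A further 164 exon bases lie opposite an antisense gene. Which part of the transcript the panel reads was not known, and the values are uncertain to that extent.

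The PLEKHM1 means ran from siVps28#2 (208 ± 27.5 CPM, SD, n = 3) through siTsg101#1 (186 ± 12.9), siVps28#1 (166 ± 25.8) and siTsg101#2 (135 ± 24.8) to siCtrl#1 (81.2 ± 20.8) and siCtrl#2 (75.6 ± 5.71). Neighbours in this order overlapped in their libraries except siTsg101#2 and siCtrl#1. The mean log2 fold change against siCtrl#1 was 1.08 ± 0.16 (SE; 95% confidence interval 0.76 to 1.40, adjusted p = 2.38e-05). Single siRNAs gave 1.20 (siTsg101#1), 0.73 (siTsg101#2), 1.03 (siVps28#1) and 1.36 (siVps28#2), all called, with adjusted p of 0.00613 or less. Without siCtrl#1 replicate 1, the library with the lowest PLEKHM1 level, the siTsg101#2 value fell to 0.55 (adjusted p = 0.0537) and its call was lost. Within batches the on-target mean was 0.92 to 1.41 above siCtrl#1 (log2).

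VPS41 (7:38762574-38971994 in GRCh37, minus strand), a HOPS subunit at the tip of the complex that binds small GTPases on membranes, had the largest estimate of the 6 subunits against siCtrl#1. Its level was 27.2, 19.4 and 24.6 CPM in the siCtrl#1 libraries, from 63 to 144 reads, and 25.8, 24.3 and 36.0 CPM with siCtrl#2. It was 33.2, 46.4 and 45.1 CPM with siTsg101#1 and 41.7, 37.4 and 43.1 CPM with siTsg101#2. With siVps28#1 it was 37.7, 36.0 and 43.7 CPM, and with siVps28#2 37.5, 47.1 and 39.4 CPM. Every on-target library exceeded the highest siCtrl#1 library, but siTsg101#1 replicate 1 and, by a small margin, siVps28#1 replicate 2 lay below siCtrl#2 replicate 3. Within batches 1, 2 and 3, the on-target mean of VPS41 exceeded siCtrl#2 by 0.53, 0.76 and 0.24 on the log2 scale.

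Among VPS41 means, siTsg101#1 (41.6 ± 7.31 CPM, SD, n = 3), siVps28#2 (41.3 ± 5.07), siTsg101#2 (40.7 ± 2.96) and siVps28#1 (39.2 ± 4.05) were close together, followed by siCtrl#2 (28.7 ± 6.41) and siCtrl#1 (23.7 ± 3.99), and all neighbours overlapped. The mean log2 fold change against siCtrl#1 was 0.77 ± 0.16 (SE; 95% confidence interval 0.45 to 1.10, adjusted p = 8.77e-04). With the single siRNAs it was 0.81, 0.77, 0.71 and 0.79 for siTsg101#1, siTsg101#2, siVps28#1 and siVps28#2, and all were called (adjusted p from 0.00287 to 0.0187). The siVps28#1 call was lost without siCtrl#1 replicate 2 (0.60, adjusted p = 0.0992) and without siVps28#1 replicate 3 (0.62, adjusted p = 0.0936). Batch by batch, the on-target mean was 0.45 to 1.08 above siCtrl#1 (log2).

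**Figure D1:**
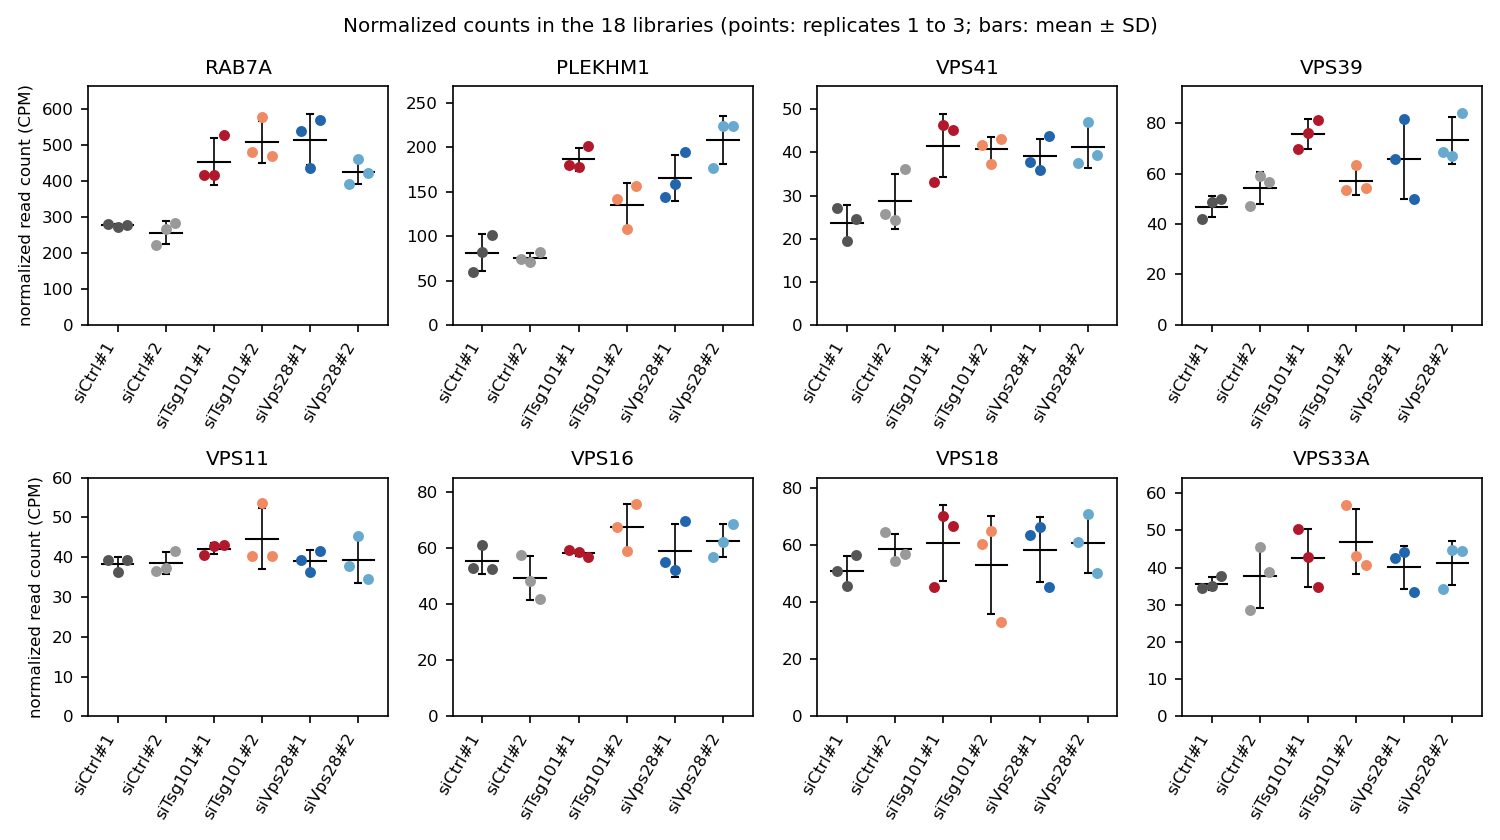
Normalized read counts (CPM, vertical axes starting at 0) of the 8 genes in the 18 libraries, by siRNA group. Points are replicates 1 to 3 from left to right, and bars give the mean and SD. The on-target libraries of RAB7A (393 to 578 CPM) and PLEKHM1 (108 to 225 CPM) lie above all nontargeting libraries, those of VPS41 lie above the siCtrl#1 libraries, and those of VPS11, VPS16, VPS18 and VPS33A overlap both.

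VPS39 (15:42450899-42500505 in GRCh37, minus strand), the subunit at the other end of HOPS, was called with siTsg101#1 and siVps28#2 but not with the other two on-target siRNAs. Its level was 42.1, 48.6 and 50.1 CPM with siCtrl#1 and 47.0, 58.9 and 56.9 CPM with siCtrl#2. It was 69.6, 76.1 and 81.3 CPM with siTsg101#1 and 53.4, 63.2 and 54.2 CPM with siTsg101#2. With siVps28#1 it was 65.6, 81.6 and 49.9 CPM, and with siVps28#2 68.7, 67.1 and 84.0 CPM. The siVps28#1 libraries spread the most, and replicate 3 lay among the siCtrl#1 libraries. The log2 fold changes against siCtrl#1 were 0.69 (adjusted p = 0.00499), 0.28 (adjusted p = 0.268), 0.48 (adjusted p = 0.0848) and 0.64 (adjusted p = 0.0123) for siTsg101#1, siTsg101#2, siVps28#1 and siVps28#2. The mean of the 4 was 0.52 ± 0.14 (SE; 95% confidence interval 0.23 to 0.82, adjusted p = 0.00916), a 1.44-fold difference. Without siCtrl#1 replicate 1 this mean was 0.45 (adjusted p = 0.0736), and the siVps28#2 call was lost (0.57, adjusted p = 0.0659). The same call was lost without siVps28#2 replicate 3 (0.53, adjusted p = 0.065), whereas without siVps28#1 replicate 3 the siVps28#1 difference was called (0.64, adjusted p = 0.0314).

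None of the 4 subunits of the shared core was called in the mean comparison or with any single siRNA. VPS11 (11:118938529-118952682, plus strand), a scaffold subunit, was at 36.3 to 41.6 CPM in the nontargeting libraries and at 34.5 to 53.6 CPM in the on-target ones. Its mean log2 fold change was 0.11 (95% confidence interval -0.16 to 0.37, adjusted p = 0.597), and the interval reached neither a 1.5-fold rise nor a 1.5-fold fall. VPS18 (15:41186648-41196173, plus strand), the other scaffold, ranged from 45.8 to 64.7 CPM with nontargeting siRNAs and from 33.2 to 71.0 CPM with on-target ones, and gave 0.19 (-0.18 to 0.55, adjusted p = 0.482). Its replicates spread widely, with an SD of 17.2 CPM around a mean of 52.9 CPM in siTsg101#2.

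VPS16 (20:2821349-2847378, plus strand), which holds VPS33A in the complex, was at 42.0 to 61.2 CPM in nontargeting and 52.3 to 75.6 CPM in on-target libraries. Its mean log2 fold change was 0.16 (95% confidence interval -0.11 to 0.42, adjusted p = 0.416). VPS33A (12:122714111-122751041, minus strand), the Sec1/Munc18 protein that guides SNARE assembly, was at 28.5 to 45.6 CPM and 33.4 to 56.9 CPM, with a difference of 0.25 (-0.08 to 0.57, adjusted p = 0.269). Against siCtrl#1, the single-siRNA values of these core genes ran from 0.03 (VPS11 with siVps28#1) to 0.39 (VPS33A with siTsg101#2). Every estimate was above 0 with that reference, and none was called. Against siCtrl#2, VPS18 was at -0.15 with siTsg101#2 and -0.0096 with siVps28#1, and the other core values were above 0. VPS33A shares 1609 exon bases with an overlapping gene on the same strand, ENSG00000256861, and 43.6% of its longest transcript recurs elsewhere in stretches of 50 bases, so that its values are uncertain.

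By siRNA, 4 of the 8 genes were called higher with siTsg101#1 (background 11.8% of tested genes), 3 with siTsg101#2 (10.4%), 3 with siVps28#1 (4.92%) and 4 with siVps28#2 (7.09%). No gene of the 8 was called lower with any of them, beside 10.1%, 6.66%, 3.76% and 6.23% of tested genes in the same order. RAB7A, PLEKHM1 and VPS41 were called with all 4, beside 2.59% of all tested genes. An estimate above 0 with all 4 siRNAs, which each of the 8 genes had, was seen in 27.8% of tested genes, and 12 on-target libraries above all 3 siCtrl#1 libraries, which RAB7A, PLEKHM1 and VPS41 had, in 5.87%. These comparisons share the siCtrl#1 libraries and are not independent of each other.

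**Figure D2:**
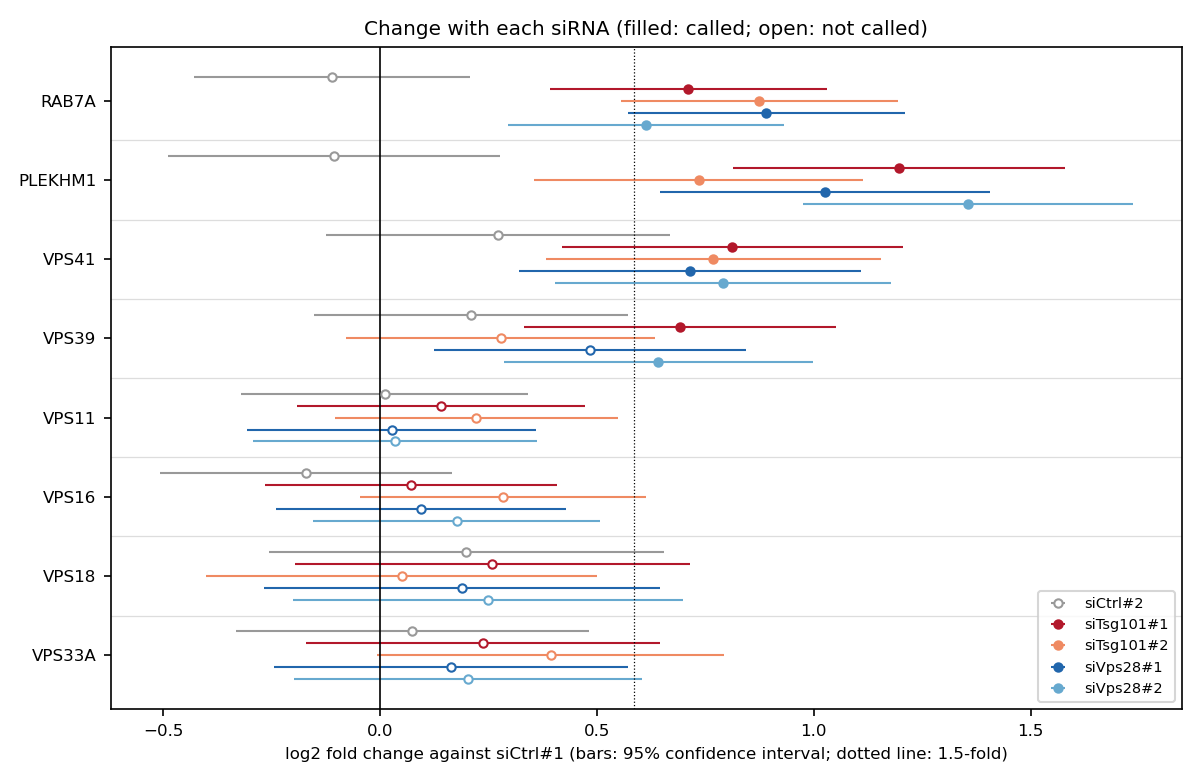
Log2 fold change against siCtrl#1 for each gene with siCtrl#2 and with each on-target siRNA; bars are 95% confidence intervals, filled points are called, and the dotted line marks 1.5-fold. RAB7A, PLEKHM1 and VPS41 are called with all 4 on-target siRNAs, from 0.61 to 1.36, VPS39 with siTsg101#1 and siVps28#2, and no gene with siCtrl#2.

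The second nontargeting siRNA gave the background of these values. Between siCtrl#2 and siCtrl#1, 0 of the 8 genes were called, beside 2.09% of all tested genes, and 0 of the 8 had an unadjusted p under 0.05 in edgeR or were called by DESeq2. The log2 differences were -0.11 for RAB7A (95% confidence interval -0.43 to 0.21), -0.11 for PLEKHM1 (-0.49 to 0.28), 0.27 for VPS41 (-0.13 to 0.67) and 0.21 for VPS39 (-0.15 to 0.57). The core subunits lay between -0.17 (VPS16) and 0.20 (VPS18). RAB7A and PLEKHM1 were thus slightly lower with siCtrl#2, and VPS41 and VPS39 slightly higher, each within its interval.

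RAB7A and PLEKHM1 were called whichever nontargeting siRNA served as the reference, whereas VPS41 and VPS39 were not. Against siCtrl#2, the averaged on-target value was 0.88 for RAB7A (adjusted p = 4.38e-05) and 1.18 for PLEKHM1 (adjusted p = 1.41e-05), both called, and these 2 of the 8 genes stood beside a background of 6.13%. Both were also called with each single siRNA against siCtrl#2, as were 1.57% of tested genes. VPS41 was 0.50 higher (95% confidence interval 0.19 to 0.81, adjusted p = 0.0262), which was under the fold minimum, and no single siRNA called it. VPS39 was 0.31 higher (0.03 to 0.60, adjusted p = 0.129), VPS16 0.33 (0.06 to 0.60, adjusted p = 0.0915) and VPS18 -0.012 (-0.37 to 0.35, adjusted p = 0.975). Against the mean of both nontargeting siRNAs, RAB7A (0.83, adjusted p = 9.24e-07), PLEKHM1 (1.13, adjusted p = 1.80e-07) and VPS41 (0.64, adjusted p = 2.49e-04) were called, 3 of 8 beside 7.43%. With that reference 1.93% of tested genes were called with each siRNA, and the VPS41 value for siVps28#1 was 0.58 (adjusted p = 0.0257), just under 1.5-fold.

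**Figure D3:**
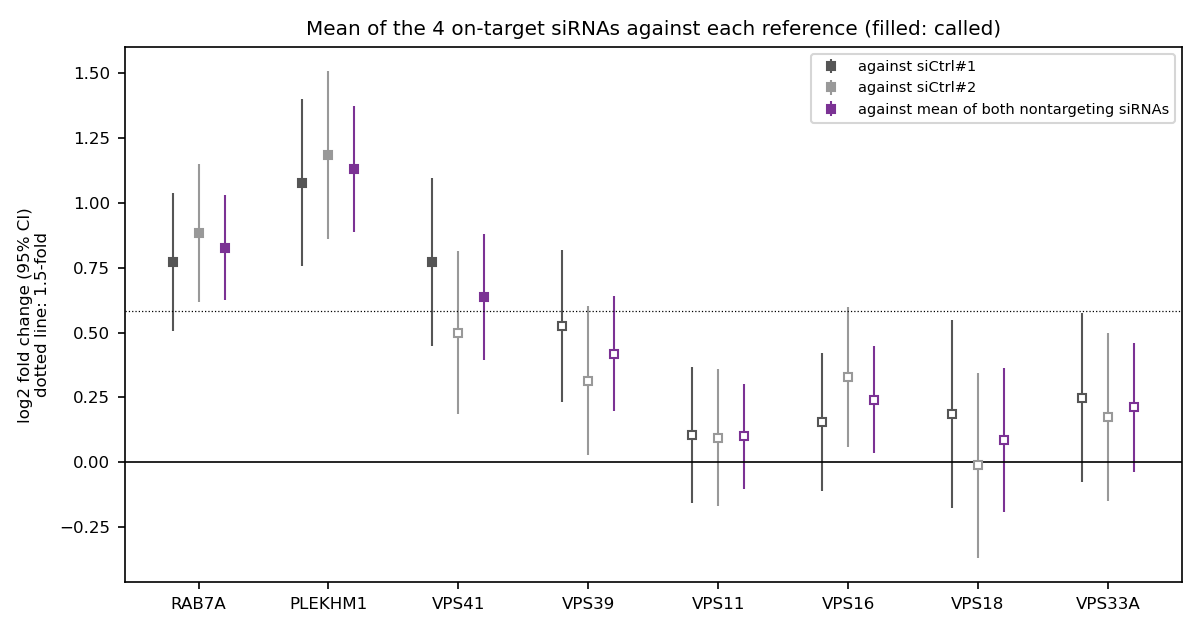
Log2 fold change of the mean of the 4 on-target siRNAs for each gene against siCtrl#1, siCtrl#2 and the mean of both; bars are 95% confidence intervals, filled squares are called, and the dotted line marks 1.5-fold. RAB7A (0.77 to 0.88) and PLEKHM1 (1.08 to 1.18) are called against every reference, whereas VPS41 falls from 0.77 to 0.50 against siCtrl#2.

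Depletion of Tsg101 and of Vps28 gave similar estimates for these genes, and no difference between them was called. Between the mean of the siTsg101 groups and that of the siVps28 groups, 0 of the 8 genes were called, beside 6.23% of all tested genes, and 0 had an unadjusted p under 0.05 in edgeR or were called by DESeq2. The largest difference was that of PLEKHM1, -0.23 (95% confidence interval -0.49 to 0.04, adjusted p = 0.278), lower with siTsg101. RAB7A differed by 0.04 (-0.18 to 0.26), VPS41 by 0.04 (-0.23 to 0.30) and VPS39 by -0.08 (-0.33 to 0.17). The core subunits ranged from -0.06 for VPS18 (-0.38 to 0.25) to 0.15 for VPS11 (-0.08 to 0.38). All 8 intervals lay within 1.5-fold in either direction. The nontargeting libraries had no weight in this difference, but they entered the scaling and the shared estimate of the spread.

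The 2 siRNAs against the same target were also compared. Between siTsg101#1 and siTsg101#2, 0 of the 8 genes were called by edgeR or DESeq2, beside 6.99% of all tested genes. PLEKHM1 (0.46, 95% confidence interval 0.09 to 0.84, adjusted p = 0.122) and VPS39 (0.41, 0.06 to 0.77, adjusted p = 0.145) were the 2 genes with an unadjusted p under 0.05, both with higher estimates for siTsg101#1. Between siVps28#1 and siVps28#2, 0 of 8 were called by either tool, 0 had an unadjusted p under 0.05, and the background was 0.48%. The PLEKHM1 difference there was -0.33 (-0.70 to 0.04, adjusted p = 0.69) and the RAB7A difference 0.28 (-0.04 to 0.59, adjusted p = 0.696). These fits did not pair libraries by batch. In the edgeR fit with the batch as a block, PLEKHM1 differed by 0.46 between the siTsg101 siRNAs (SE 0.15, adjusted p = 0.0507). Between the siVps28 siRNAs it differed by -0.34 (SE 0.15, adjusted p = 0.447).

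Over the 18 libraries, log2 levels of RAB7A, PLEKHM1 and VPS41 varied alike. Pearson's r was 0.81 between RAB7A and VPS41, 0.79 between PLEKHM1 and VPS41, 0.77 between RAB7A and PLEKHM1 and 0.71 between PLEKHM1 and VPS39. Among the shared core, r ran from -0.42 (VPS16 with VPS18) to 0.27 (VPS11 with VPS18). Between core subunits and RAB7A, PLEKHM1 or VPS41 it ran from 0.06 (RAB7A with VPS18) to 0.56 (PLEKHM1 with VPS16). For RAB7A with VPS39 it was 0.51. The libraries share the siRNA groups and differ in depth, so that these values describe the levels and are not tests.

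The genes whose profile was most like that of RAB7A were MGST1 (r = 0.92), FBXO10 (0.92), SLC26A11 (0.91), CLCN7 (0.91) and NFKBIB (0.90). CLCN7 is the chloride-proton exchanger of lysosomes. Those most like PLEKHM1 were ZNF697 (0.94), ITGAX (0.93), PLEKHM3 (0.93), DHCR7 (0.92) and TM4SF1 (0.92). For the mean of the 6 standardized HOPS profiles they were MXD1 (0.89), PLA2G12A (0.89), CXCL2 (0.89), SEL1L3 (0.88) and AP1G2 (0.87). Every r was taken over the 18 libraries.

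Other genes of the same machinery were taken from 6 lists, which hold 58 genes, 48 of them tested. With the on-target siRNAs averaged and set against siCtrl#1, 3 of the 48 were called higher and 2 lower, beside 8.56% and 6.54% of all tested genes, with a median log2 fold change of 0.15. The share of called genes was thus no larger than the background in either direction. Regulators of RAB7A (the MON1-CCZ1 exchange factor, TBC-domain proteins, GDI and Rab escort proteins) had 9 tested genes and 0 called by edgeR or DESeq2. Of the tested regulators, 3 had an unadjusted p under 0.05 in edgeR, and the median was 0.18. CCZ1 and CCZ1B had 0 reads, TBC1D15 had 30 and TBC1D5 was not found in the counts, so that these were not tested. The exchange factor was thus measured without its CCZ1 part. TBC1D2B had the largest estimate, 1.75 ± 0.70 (SE, adjusted p = 0.0747), from 120 reads in all libraries together, most of them in the siTsg101 libraries. In the fit with the batch as a block it was called (adjusted p = 0.0476).

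Of the 9 tested effectors of RAB7A, only RILP was called, and it was lower. RILP, which links RAB7A to the dynein motor, fell by 0.89 on the log2 scale (SE 0.18, adjusted p = 8.82e-04) and was called lower with each on-target siRNA, from -1.15 with siTsg101#2 to -0.76 with siVps28#1. Its level was 19.5, 23.7 and 17.8 CPM with siCtrl#1 and 26.3, 17.8 and 17.9 CPM with siCtrl#2, and no on-target library exceeded 15.6 CPM. The on-target libraries thus lay below all siCtrl#1 libraries, as they did in 4.84% of tested genes. Any one on-target siRNA called 3.76% to 10.1% of tested genes lower. The share called lower by every one of them is not given here, so the repeated RILP call has no matching background. The retromer genes VPS35, VPS26A, VPS26B and VPS29 had averaged values from 0.09 to 0.28, none called, and the median of the effectors was 0.0050. For VPS35 and VPS26A this average joined siRNAs that differed. VPS35 was at -0.54 with siTsg101#1 (adjusted p = 0.14) and was called higher with siTsg101#2 (1.00, adjusted p = 0.00489), and these siRNAs differed by -1.55 (adjusted p = 4.20e-04). VPS26A was at -0.51 with siTsg101#1 (adjusted p = 0.049, under the fold minimum) and was called higher with siTsg101#2 (0.66, adjusted p = 0.0128), a difference of -1.17 (adjusted p = 3.23e-04).

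CORVET and CHEVI subunits, the counterparts that join the shared core or its paralog in other tethers, had 0 of 4 called by edgeR or DESeq2 and 0 with an unadjusted p under 0.05. TGFBRAP1 and VPS8, which take the places of VPS39 and VPS41 in CORVET, were at -0.29 (adjusted p = 0.282) and 0.29 (adjusted p = 0.334).

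Of the 11 tested ARL8 and BORC partners, which move lysosomes toward the cell periphery, 2 were called higher, beside 8.56% of all tested genes, and all 11 estimates were above 0 (median 0.35). With siCtrl#2 against siCtrl#1, 10 of the 11 estimates were also above 0 (median 0.26) and 1 gene was called. PLEKHM3, a paralog of PLEKHM1, was 0.75 ± 0.15 higher (SE, adjusted p = 7.77e-04) and was called with every on-target siRNA other than siTsg101#2 (0.48, adjusted p = 0.0591). BORCS7, a BORC subunit, was 0.79 ± 0.17 higher (SE, adjusted p = 0.00125), but it was also higher with siCtrl#2 (0.86, adjusted p = 0.0222). It shares 344 exon bases with overlapping genes on its strand.

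Of the 10 tested SNAREs and SNARE-recycling proteins, VAMP7, a SNARE of late endosomes and lysosomes, was called higher (1.26 ± 0.22, SE, adjusted p = 1.92e-04). The same gene was called higher with siCtrl#2 against siCtrl#1 (1.23, adjusted p = 0.0108) and against siCtrl#2 no gene of this list was called. STX17, the autophagosomal partner of HOPS, was at -0.08 (adjusted p = 0.762). Among other late endosomal Rabs and RAB2, 1 of 5 tested genes was called: RAB38, of lysosome-related organelles, fell by 0.63 on the log2 scale (adjusted p = 0.0018), from -0.99 with siTsg101#2 to -0.13 with siTsg101#1, and those siRNAs differed by 0.86 (adjusted p = 0.00429).

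**Figure D4:**
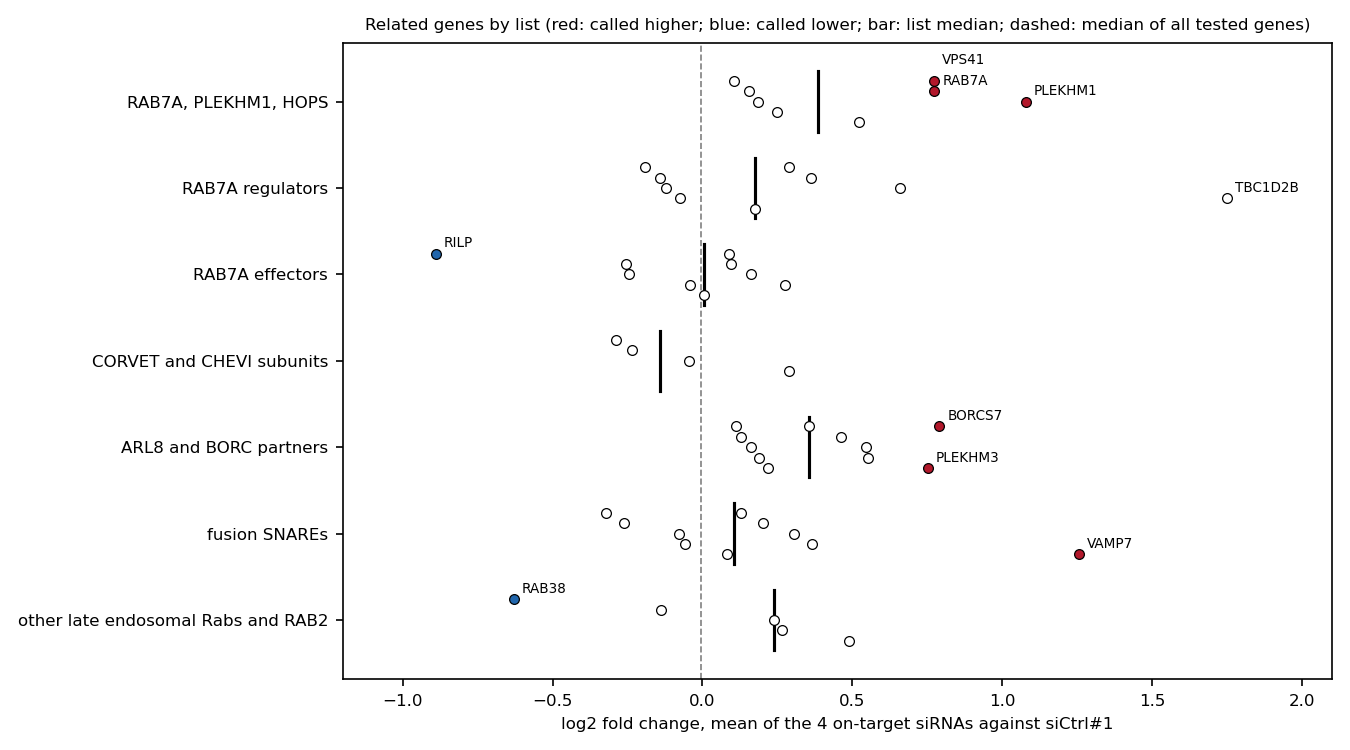
Log2 fold change from siCtrl#1 to the averaged on-target siRNAs for the 8 genes and the tested genes of the 6 related lists; each point is a gene, red called higher, blue called lower, black bars list medians and the dashed line the median of all tested genes. The 8 genes have a median of 0.39 and 3 called, and the related lists have 3 called higher and 2 lower of 48.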

How the data were processed

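Total RNA of the 18 transfected RKO cultures was converted by the authors to Ion AmpliSeq libraries, in which each transcript is read from a short amplicon, so that levels are not compared between genes. Per the labels, reads were aligned to hg19 and counted with HTSeq 0.6.0 (submitters' processing notes). The paper names the AmpliSeq transcriptome of hg19 as the alignment reference. How far the gene overlaps given above matter with that reference was not tested. The deposited values are raw counts per transcript, not normalized. Between 53.3% and 54.6% of reads were not counted on a gene and were left out of library sizes. Reads on no feature made up 48.2% to 49.1%, and the rest fell mainly in other classes that the counting sets aside. The strand setting is not given in the sources used here.

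Groups and replicate numbers came from the labels, in which the number is also the batch, and every batch holds each siRNA once. Same-numbered libraries deviated together on average (mean r 0.14 over 45 pairs, 30 of them over 0.1, range -0.15 to 0.39), and the batch was added as a block in an alternative fit. Counts were scaled by TMM and fitted in edgeR 4.0.16 (R 4.3.3, quasi-likelihood, 6 group means, all libraries). Genes had more than 100 reads in all, and 420 noncoding rows were left out. SEs were taken from the F statistic. CPM are TMM-scaled, and profiles used log2 CPM with a prior count of 2. Gene positions are from GENCODE lifted to GRCh37. The fits were tested on simulated data.

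The 8 genes, the 6 lists and the tests were chosen with earlier results of these data known. Named beside the 8 were the called genes of each list, or its largest change where none was called, and the 5 likest profiles; VPS8, STX17 and the retromer genes were named after their values were seen. Alternatives were DESeq2 1.42.0, RLE scaling, no or a stricter read minimum, noncoding rows kept, other references, the block, no fold minimum, fits of only the compared groups, and each library left out.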

Additional observations from a re-analysis of the deposited data

Results flagged for a closer look

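TBC1D2B, a GTPase-activating protein of the TBC family that was listed among the regulators of RAB7A, differed between the depletions in the direct test of siTsg101 against siVps28. Its log2 difference was 2.98 ± 0.44 (SE, edgeR adjusted p = 4.48e-05), higher with siTsg101. It had 8, 6 and 20 reads with siTsg101#1 and 22, 20 and 25 reads with siTsg101#2, and between 0 and 5 reads in every siVps28 and nontargeting library. Against siCtrl#1 it was called higher with siTsg101#1 (2.99, adjusted p = 0.00214) and siTsg101#2 (3.49, adjusted p = 3.12e-04) and not with siVps28#1 (-0.21, adjusted p = 0.942) or siVps28#2 (0.72, adjusted p = 0.636). With 120 reads over all 18 libraries the depth limits the size of these values, and the fitted fold changes depend on the prior count.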

How the results depend on the processing

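RAB7A and PLEKHM1 were called higher with the on-target siRNAs averaged under all 10 alternatives and with each library left out, from 0.74 to 0.88 and from 0.90 to 1.27 on the log2 scale. VPS41 was called in all of these except with siCtrl#2 as the reference (0.50, adjusted p = 0.0262), and otherwise lay between 0.64 and 0.87. Of the 872 recomputed values, 850 were classed as unchanged. For a fold change this meant the same direction and the same side of the threshold. A count of called genes could differ by up to 1.5-fold and still be classed as unchanged, so that 2 in place of 3 was. The count of the 8 genes called with all 4 on-target siRNAs ranged from 2 to 3 over the 10 alternatives, all classed as unchanged. With siCtrl#2 as the reference, 2 of the 8 genes were called with siTsg101#1 and 2 with siVps28#2, in place of 4 each, and the RAB7A effectors had 2 called genes, the ARL8 and BORC partners 1 and the SNAREs 0. VPS18 then turned to -0.012 in the mean comparison. With both nontargeting siRNAs averaged as the reference, the regulators of RAB7A had 1 called gene and the ARL8 and BORC partners 1. Without the fold minimum, the ARL8 and BORC partners had 4 called genes, and VPS39 (0.52) was called. The causes of these shifts were not tested.

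The replicate number, which is also the batch, as a replicate block gave 1 called regulator of RAB7A in place of 0 (TBC1D2B) and changed no call of the 8 genes. With 1 library left out at a time, the regulators of RAB7A had 0 to 1 called genes (1 without siVps28#1 replicate 3), and the genes called with all 4 on-target siRNAs numbered 2 to 3. Small differences of siTsg101 against siVps28 changed sign: RAB7A ranged from -0.021 to 0.080, VPS16 from -0.0079 to 0.11, VPS18 from -0.15 to 0.055, VPS39 from -0.16 to 0.012 and VPS41 from -0.0034 to 0.10. The count of called genes of the 8 was 0 in each of those fits. Depth was lowest for VPS41, with as few as 63 reads in a library. With single siRNAs the confidence intervals of VPS16, VPS18 and VPS33A reached 1.5-fold in at least 1 comparison against siCtrl#1, so that a rise of that size is not excluded there.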
